A study of Homo sapiens with 2 samples.

Results

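The collagen genes were examined as the protein-coding genes of the deposited table whose symbol has the form COL, a type number, A and a chain number. By this rule 44 of the 17409 protein-coding genes of the table were collagen genes, and they occupied 50 rows because COL11A2 is listed at 7 loci, 6 of which are at 0. They fell into 9 classes: 11 fibrillar, 6 basement membrane, 5 beaded filament, 1 anchoring fibril, 3 hexagonal network, 10 FACIT (fibril-associated collagens with interrupted triple helices), 4 transmembrane, 2 multiplexin and 2 other genes.

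Total RNA of 2 established human prostate cancer cell lines was sequenced, MDA PCa 2b and RC77 T/E, both untreated, with 1 paired-end directional library per line. MDA PCa 2b, which was derived from a bone metastasis, was grown in Kaighn's modified Ham's medium containing fetal bovine serum, cholera toxin, mouse epidermal growth factor, hydrocortisone, insulin, sodium selenite, phosphoethanolamine and antibiotics. RC77 T/E, which was derived from a primary tumour and immortalised with papillomavirus E6 and E7 genes, was grown in Keratinocyte-SFM, a serum-free medium, with epidermal growth factor and pituitary extract of cattle. Since each line had its own medium and 1 library, line, medium and library cannot be told apart, no value has a replicate error, and no test was made. Levels are given in TPM, a transcript abundance scaled to gene length and to the library's total. TPM keeps no read number, so the depth behind each value is unknown. In bulk RNA, fewer cells with a transcript and less of it per cell cannot be told apart. A gene was called expressed in a line at 1 TPM or more in that line's library, whereas the study's criteria used the presence and average of a gene over its samples.

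In the deposited table the decimal mark is missing from values of 1 TPM or more that have at least 3 decimals. It was restored from the mean and standard error that the authors give in the same row. For 40 of the 44 collagen genes 1 position of the mark remained. For the 4 others, COL7A1, COL12A1, COL22A1 and COL26A1, several positions remained, and all possible values are given. The lowest position was used in sums, counts and medians, also for all other genes, unless stated.

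Collagens are extracellular proteins of 3 chains wound into a triple helix, in which glycine recurs at a fixed spacing. Fibrillar collagens form the fibrils of connective tissue, type IV collagen forms the network of the basement membrane under epithelia, type VII anchors that membrane to the stroma, FACIT collagens decorate fibrils, and type XVII crosses the plasma membrane of basal epithelial cells at the hemidesmosome. In the prostate, basal cells rest on the basement membrane and stromal fibroblasts make most of the fibrillar collagen.

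The sequence that encodes the helix is shown for the 3 fibrillar genes that represent types I, V and XXVII, because this repeat is what the members have in common. Each line is a coding exon of 54 bases, 5′ to 3′, with 6 Gly-X-Y units and the glycine codons in capitals. The COL1A1 exon is number 8 of 51 coding exons (chr17:50197949-50198002, minus strand), the COL5A1 exon number 15 of 66 (chr9:134753850-134753903, plus strand) and the COL27A1 exon number 4 of 61 (chr9:114178291-114178344, plus strand), on GRCh38 with GENCODE release 29.
COL1A1: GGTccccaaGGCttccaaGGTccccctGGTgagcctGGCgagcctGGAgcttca
COL5A1: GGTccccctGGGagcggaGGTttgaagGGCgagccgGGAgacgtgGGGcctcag
COL27A1: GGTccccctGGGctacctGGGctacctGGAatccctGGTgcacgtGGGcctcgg

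Fibrillar genes held 21 to 33 exons of this length each, or 41.2% to 55.0% of their coding exons. FACIT genes held 4 to 28, or 6.15% to 43.75%, so the highest of them lay within the fibrillar range. Basement membrane genes held 1 to 3 and transmembrane genes 3 or 4. COL7A1 has 118 coding exons, of which 5 were of 54 bases.

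Of the 44 collagen genes, 5 were expressed in MDA PCa 2b versus 17 in RC77 T/E. These are 11.4% and 38.6% of the members, beside 57.9% and 61.7% of all protein-coding genes. The 5 genes of MDA PCa 2b were COL4A5, COL7A1, COL9A2, COL12A1 and COL26A1, and 3 of them (COL4A5, COL7A1 and COL12A1) were also expressed in RC77 T/E. A further 14 genes, 31.8%, reached 1 TPM in RC77 T/E alone, beside 7.75% of all protein-coding genes. In the reverse direction 2 genes, COL9A2 and COL26A1, reached it in MDA PCa 2b alone, beside 4% of all protein-coding genes. The other 25 members, 56.8%, were below 1 TPM in both lines, beside 34.3%. The counts depend on the threshold: at 0.5 TPM, 12 collagen genes were expressed in MDA PCa 2b against 20 in RC77 T/E. The share of all protein-coding genes was computed at 1 TPM only, so this shift has no share beside it. The 7 genes between 0.5 and 1 TPM in MDA PCa 2b were COL1A1, COL1A2, COL2A1, COL3A1, COL4A6, COL9A3 and COL18A1, and the 3 in RC77 T/E were COL1A2, COL4A4 and COL23A1.

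**Figure D1:**
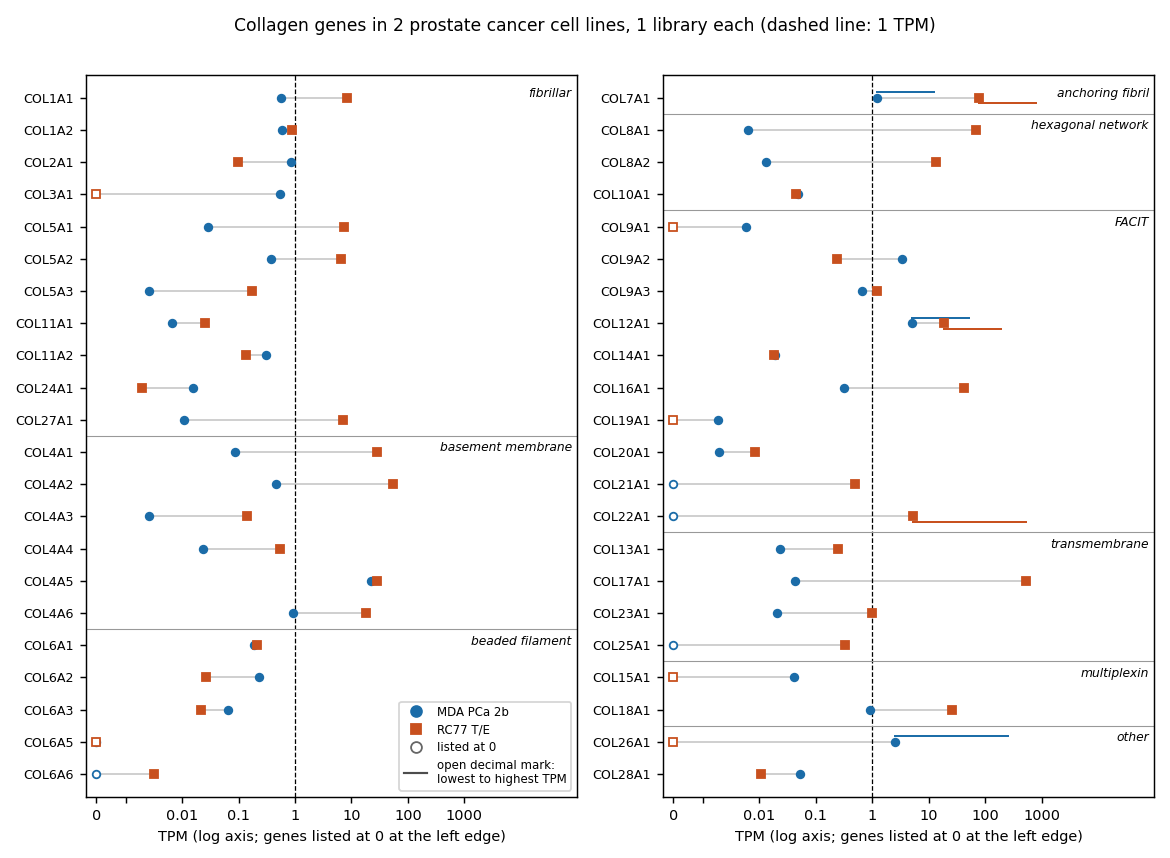
TPM of each of the 44 collagen genes in both cell lines (log axis), grouped by class, with 1 library per cell line. Horizontal lines span the possible values of the 4 genes whose decimal mark is open, and genes listed at 0 stand at the left edge. COL17A1 in RC77 T/E, at 523.9 TPM, is the farthest to the right among genes with 1 position of the mark.

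The lines were compared as a log2 ratio, RC77 T/E divided by MDA PCa 2b after adding 1 TPM to each, a scale that understates the difference of low genes. Among the 19 collagen genes at 1 TPM or more in at least 1 line, 15 were higher in RC77 T/E by 2-fold or more, 2 were higher in MDA PCa 2b by as much and 2 lay within 2-fold. These are 78.9% and 10.5%, beside 19.7% and 19.9% of the 11432 protein-coding genes that met the same filter. The median log2 ratio of the 19 genes was 3.02, beside -0.14 for the 11432 genes. Of the 19 genes, 14 met the filter through RC77 T/E alone and 2 through MDA PCa 2b alone, beside 1350 and 697 of the 11432. Such members had to differ, so both the shares and the median depend on the filter. Without it, the same 15 and 2 genes are out of 44 members, beside 2257 and 2270 of all 17409 protein-coding genes. The median over all 44 members was 0.26, beside 0 for all protein-coding genes.

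**Figure D2:**
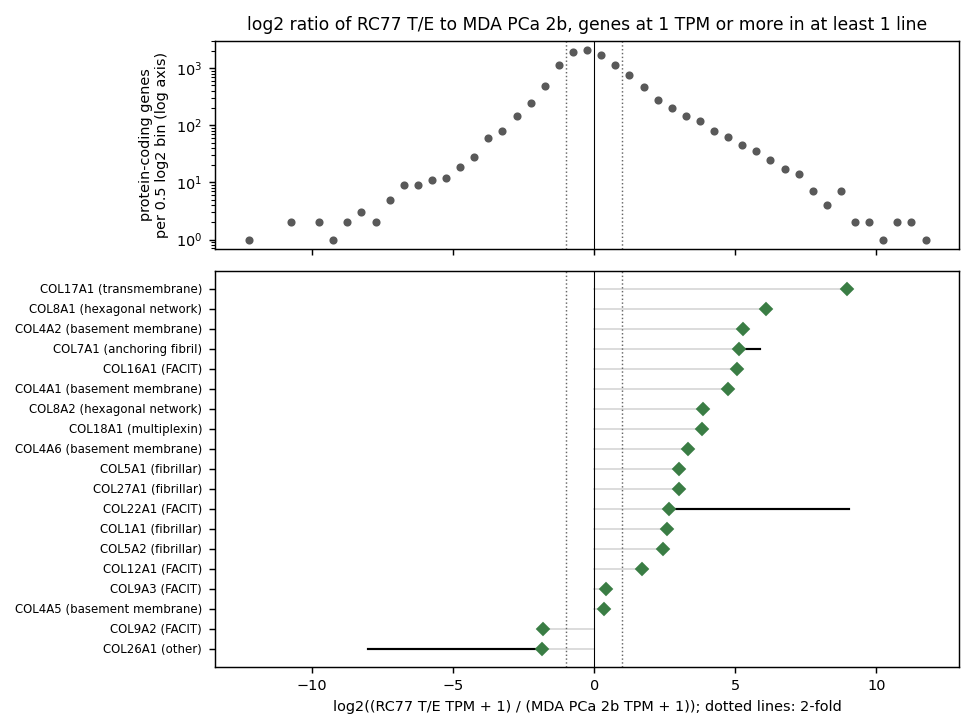
Log2 ratio of RC77 T/E over MDA PCa 2b (log2 of TPM plus 1) for the 19 collagen genes at 1 TPM or more in at least 1 line, labelled by class, with dotted lines at 2-fold. Black segments run from the lowest to the highest position of open marks, 2.65 to 9.05 for COL22A1 and -1.84 to -8.01 for COL26A1. Points to the right are higher in RC77 T/E: 15 genes lie beyond the right dotted line and COL9A2 and COL26A1 beyond the left.

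Among the fibrillar genes, 4 of 11 were expressed in RC77 T/E and none in MDA PCa 2b. The shares of all protein-coding genes were 61.7% and 57.9%. COL5A1, a chain of type V collagen, which sets the width of type I fibrils, stood at 0.0293 TPM in MDA PCa 2b versus 7.32 in RC77 T/E, a log2 ratio of 3.02. Its partner chain COL5A2 stood at 0.382 and 6.42 TPM (log2 ratio 2.43). COL27A1, which encodes a fibrillar collagen of cartilage, stood at 0.0108 and 7.04 TPM (log2 ratio 2.99). All 3 of these genes were thus in the same range of 6 to 8 TPM in RC77 T/E. COL1A1, the alpha 1 chain of type I collagen, stood at 0.554 TPM in MDA PCa 2b versus 8.24 in RC77 T/E (log2 ratio 2.57). Its alpha 2 partner COL1A2 remained below 1 TPM in both, at 0.588 and 0.873. The chains of type I collagen join as 2 alpha 1 and 1 alpha 2. The TPM of COL1A1 was 0.941 times that of COL1A2 in MDA PCa 2b and 9.44 times in RC77 T/E.

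The remaining fibrillar genes were low in both lines. COL3A1, the chain of type III collagen, was listed at 0 in RC77 T/E and at 0.533 TPM in MDA PCa 2b, and its neighbour COL5A2 lies 19151 bases away on chromosome 2. COL2A1, the collagen of cartilage, was at 0.832 and 0.0980 TPM. COL5A3, COL11A1, COL11A2 and COL24A1 were at or below 0.311 TPM in both lines. The summed level of the class was 3.27 TPM in MDA PCa 2b versus 30.3 in RC77 T/E.

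The basement membrane genes were the class with the highest sum of determined values in MDA PCa 2b, at 23.5 TPM, and stood at 130.5 TPM in RC77 T/E. In MDA PCa 2b this was mostly 1 gene, COL4A5, at 22.0 TPM. COL4A5 was at 28.3 TPM in RC77 T/E, 1.29 times its level in MDA PCa 2b, and was one of the 2 expressed collagen genes within 2-fold. The other 3 expressed chains were apart between the lines. COL4A1 was at 0.0853 TPM in MDA PCa 2b versus 28.3 in RC77 T/E (log2 ratio 4.75). COL4A2 was at 0.452 and 55.0 TPM (log2 ratio 5.27), and COL4A6 at 0.921 and 18.1 TPM (log2 ratio 3.32). COL4A3 and COL4A4, the chains of the mature kidney glomerulus, were below 1 TPM in both lines, at 0.00255 and 0.142 TPM and at 0.0234 and 0.545 TPM.

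Type IV chains assemble in fixed trimers, of which alpha 1 with alpha 2 is the common form, alpha 3 with alpha 4 and alpha 5 is that of the glomerulus, and alpha 5 with alpha 6 occurs under smooth muscle and some epithelia. In RC77 T/E the TPM of COL4A2 was 1.95 times that of COL4A1, and COL4A5 was 1.56 times COL4A6. In MDA PCa 2b the same ratios were 5.30 and 23.9, and COL4A5 was the only type IV gene at or above 1 TPM there.

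**Figure D3:**
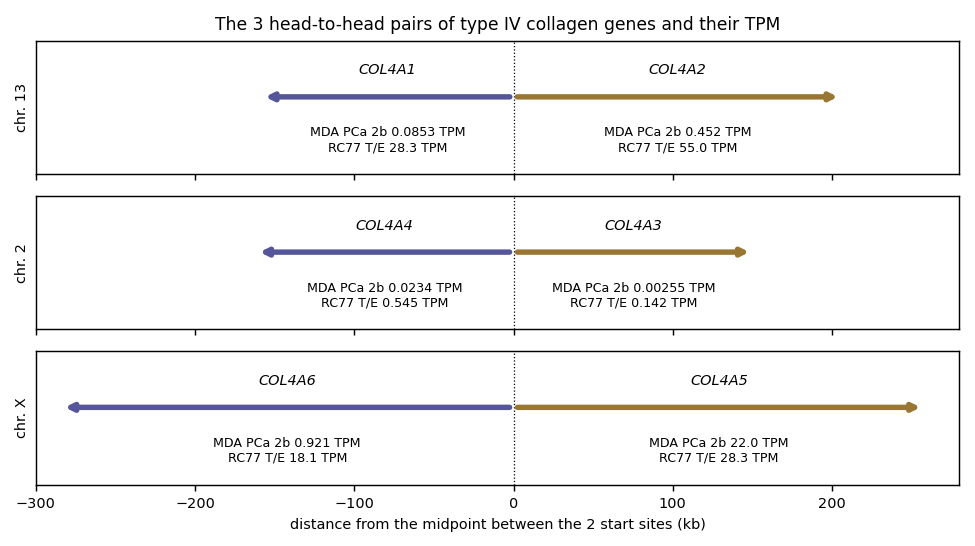
The 6 type IV collagen genes drawn as arrows by head-to-head pair, along the distance from the midpoint between their start sites (kb). The TPM of each gene in both cell lines is printed below its arrow. In RC77 T/E the printed values are 28.3 TPM for COL4A1, 55.0 for COL4A2, 28.3 for COL4A5 and 18.1 for COL4A6. In MDA PCa 2b COL4A5 is at 22.0 TPM and COL4A6 at 0.921 TPM.

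The 6 genes lie as 3 pairs, each transcribed outward from neighbouring start sites, so the sequence between 2 starts is upstream of both genes. In RefSeq on GRCh38.p14 the starts of COL4A1 (minus strand, 110307157) and COL4A2 (plus strand, 110307284) on chromosome 13 are 127 bases apart. Those of COL4A4 and COL4A3 on chromosome 2 are 419 bases apart, and those of COL4A6 and COL4A5 on chromosome X are 380 apart. The bases between COL4A1 and COL4A2 are shown because both genes were at 28 TPM or more in RC77 T/E and below 0.5 TPM in MDA PCa 2b (chr13:110307158-110307283, plus strand). The 250 bases upstream of COL4A6 are shown because its level was 19.7 times as high in one line as in the other while for its neighbour COL4A5 the factor was 1.29 (chrX:108439459-108439708, minus strand). The 250 bases upstream of COL17A1 are shown because it had the largest log2 ratio of the determined members (chr10:104085881-104086130, minus strand). Capitals mark 3 motifs searched on both strands: the CCAAT box by those letters, the GC box as GGGCGG, and the TATA box as TATAAA. None of the matches overlap here, and ATTGG is CCAAT read on the other strand.
COL4A1-COL4A2: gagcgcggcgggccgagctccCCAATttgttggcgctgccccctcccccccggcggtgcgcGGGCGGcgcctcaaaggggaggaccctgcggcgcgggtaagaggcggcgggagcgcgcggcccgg
COL4A6: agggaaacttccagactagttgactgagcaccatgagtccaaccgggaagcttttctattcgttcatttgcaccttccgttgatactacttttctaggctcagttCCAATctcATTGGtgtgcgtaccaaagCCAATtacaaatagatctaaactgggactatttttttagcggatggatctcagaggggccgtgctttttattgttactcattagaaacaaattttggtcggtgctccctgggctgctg
COL17A1: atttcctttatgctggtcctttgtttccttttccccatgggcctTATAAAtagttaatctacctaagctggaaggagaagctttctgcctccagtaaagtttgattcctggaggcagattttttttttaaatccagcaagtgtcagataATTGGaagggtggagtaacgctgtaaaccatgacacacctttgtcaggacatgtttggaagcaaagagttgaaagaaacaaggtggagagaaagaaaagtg

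The stretch between COL4A1 and COL4A2 had a GC content of 80.2%, with CCAAT at position 22 and GGGCGG at position 62, counted from its 5′ end. Windows of 126 bases upstream of all 35116 RefSeq starts in the set used held CCAAT in 21.1% and GGGCGG in 34.6%. COL4A6 has a further RefSeq start at 108438422, and the window shown is that of the start nearer to COL4A5. It had a GC content of 44% and held CCAAT at positions 106 and 133 and on the other strand at 114. The COL17A1 window had a GC content of 40.4% and held TATAAA at position 45 and CCAAT on the other strand at 150. Positions in both windows of 250 bases are counted from the end far from the start site, so this TATAAA lies toward the far end. Over all windows of 250 bases, CCAAT was present in 32%, GGGCGG in 42.6% and TATAAA in 10.7%. Promoter windows were found for 32 of the 44 members, 44 windows in all because some genes have several starts. Counted by window, CCAAT was present in 5 of the 15 windows of the 12 members expressed in RC77 T/E and in 7 of the 29 windows of the 20 others. GGGCGG was present in 12 windows of each set, which is 80% of the 15 and 41.4% of the 29, beside 42.6% of all windows. TATAAA was present in 3 and 5 windows. Counted by gene, with a match in any window of the gene, the contrast in GGGCGG was smaller: 10 of the 12 members and 11 of the 20. By gene CCAAT was present in 5 and 6 members and TATAAA in 3 and 4. The median GC content was 66.4% over the 15 windows and 63.2% over the 29, beside 58.0% for all windows. These are matches of letters only.

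Of the 3 hexagonal network genes, 2 were expressed in RC77 T/E and none in MDA PCa 2b. The shares of all protein-coding genes were 61.7% and 57.9%. COL8A1, a short-chain collagen of vessel wall and cornea, stood at 0.00623 TPM in MDA PCa 2b versus 68.3 in RC77 T/E (log2 ratio 6.11). Its partner COL8A2 stood at 0.0130 and 13.7 TPM (log2 ratio 3.86). In RC77 T/E COL8A1 was 4.99 times COL8A2. COL10A1, the collagen of hypertrophic cartilage, was at 0.0475 and 0.0442 TPM. The sum of the class was 0.0667 TPM in MDA PCa 2b versus 82.1 in RC77 T/E.

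The transmembrane class had the largest determined sum in RC77 T/E, 525.5 TPM, beside 0.0863 in MDA PCa 2b. Nearly all of it was COL17A1 (ENSG00000065618, chromosome 10, 104031286 to 104085880), which was at 0.0424 TPM in MDA PCa 2b versus 523.9 in RC77 T/E. Its log2 ratio was 8.98, and 10 to 34 of the 11432 protein-coding genes had a larger one, depending on the open marks. Because marks of other genes are open, between 109 and 848 protein-coding genes stood above it in RC77 T/E. It made up 22.4% to 55.6% of the summed collagen TPM of that line. Without COL17A1 the class sums were 0.0439 and 1.56 TPM. COL13A1 was at 0.0231 and 0.245 TPM, COL23A1 at 0.0208 and 0.991 TPM, and COL25A1 was listed at 0 in MDA PCa 2b and at 0.328 TPM in RC77 T/E.

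COL17A1 spans the membrane at the hemidesmosome, the junction that ties keratin filaments to the basement membrane, and 5 genes of its partners were listed beside it. All 5 were expressed in both lines, beside 9385 of the 17409 protein-coding genes. Of the 5, 4 exceeded 2-fold in favour of RC77 T/E, beside 19.7% of all protein-coding genes in the same filter. ITGB4, the beta 4 integrin chain of that junction, stood at 4.51 TPM in MDA PCa 2b versus 462.8 in RC77 T/E. DST, which encodes the plakin BP230, stood at 1.9 and 148.2 TPM. The decimal marks of ITGA6 and PLEC were open, but their ratio was not: RC77 T/E was 26.2 times MDA PCa 2b for ITGA6 and 8.04 times for PLEC. For CD151, a tetraspanin, MDA PCa 2b was 1.54 times RC77 T/E.

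COL7A1, the anchoring fibril that binds the basement membrane to the stroma, was at 1.24 or 12.4 TPM in MDA PCa 2b versus 78.5 or 785.2 in RC77 T/E. Whichever position holds, RC77 T/E was 63.5 times MDA PCa 2b, with a log2 ratio of 5.15 or 5.88. COL7A1 was therefore expressed in both lines, and its level in RC77 T/E was either below or above that of COL17A1.

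Of the 10 FACIT genes, 2 were expressed in MDA PCa 2b versus 4 in RC77 T/E, beside 57.9% and 61.7% of all protein-coding genes. COL16A1, which lies at the edge of fibrils and basement membranes, stood at 0.316 TPM in MDA PCa 2b versus 43.1 in RC77 T/E (log2 ratio 5.07). COL12A1, the type XII chain that coats type I fibrils, was at 5.11 and 18.8 TPM or at 51.1 and 188.3, so RC77 T/E was 3.68 times MDA PCa 2b in either case. COL22A1, a collagen of tissue junctions, was listed at 0 in MDA PCa 2b and was at 5.29, 52.9 or 528.6 TPM in RC77 T/E. The type IX chains, which coat the fibrils of cartilage, lay on opposite sides. COL9A2 was at 3.39 TPM in MDA PCa 2b versus 0.242 in RC77 T/E (log2 ratio -1.82), and COL9A3 was at 0.662 and 1.22 TPM (log2 ratio 0.42). COL9A2 was 5.13 times COL9A3 in MDA PCa 2b, and COL9A3 was 5.02 times COL9A2 in RC77 T/E. COL9A1, the remaining chain of the type IX trimer, was listed at 0 in RC77 T/E and at 0.00578 TPM in MDA PCa 2b. COL14A1, COL19A1 and COL20A1 were below 0.02 TPM in both lines, and COL21A1 was listed at 0 in MDA PCa 2b and at 0.499 TPM in RC77 T/E.

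Of the multiplexins, COL18A1, the basement membrane collagen from which endostatin is cut, stood at 0.911 TPM in MDA PCa 2b versus 26.2 in RC77 T/E (log2 ratio 3.83), whereas COL15A1 was at 0.0407 TPM and listed at 0. COL26A1 was at 2.58, 25.8 or 257.6 TPM in MDA PCa 2b and listed at 0 in RC77 T/E. As for COL22A1, no fold is given against a value of 0, although both genes passed 2-fold once 1 TPM was added. COL28A1 was at 0.0521 and 0.0108 TPM. The beaded filament genes of type VI collagen, which is abundant around stromal cells, were low in both lines. COL6A1 was at 0.188 and 0.216 TPM, COL6A2 at 0.234 and 0.0261, COL6A3 at 0.0653 and 0.0212, COL6A6 at 0 and 0.00314, and COL6A5 was listed at 0 in both.

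**Figure D4:**
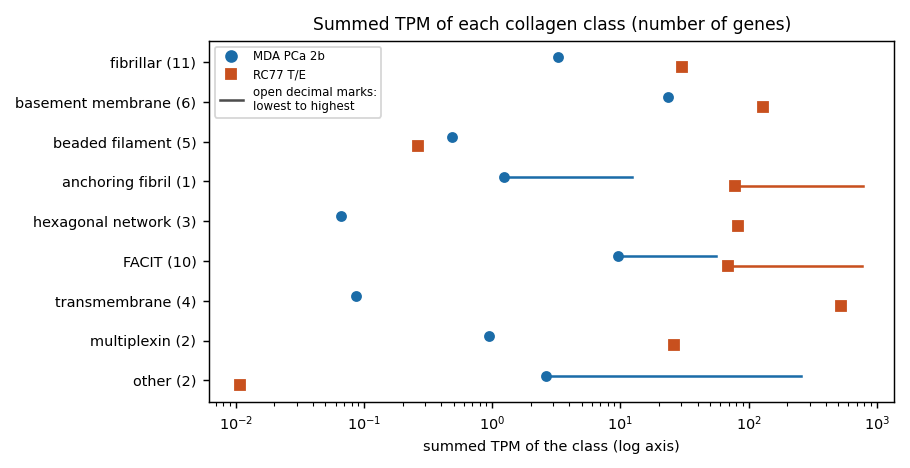
Summed TPM of each collagen class in both cell lines (log axis), with lines from the lowest to the highest sum that the open decimal marks allow. The sums at the lowest positions are higher in RC77 T/E for 7 of the 9 classes and higher in MDA PCa 2b for the beaded filament and other classes.

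Over all 44 genes the summed collagen TPM was 41.7 to 353.9 in MDA PCa 2b and 942.6 to 2342 in RC77 T/E. In MDA PCa 2b the member with the largest share was not determined: COL4A5 held 6.22% to 52.7% of the sum, COL12A1 1.66% to 58.3% and COL26A1 2.61% to 86.8%. Without COL17A1 the sum in RC77 T/E was 418.7 to 1818 TPM. The lowest sum of RC77 T/E was thus above the highest sum of MDA PCa 2b.

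The lines were set beside markers of prostate and other cells. MDA PCa 2b expressed the luminal marker KLK3 at 5323 TPM and had the basal keratin KRT5 at 0.00435, whereas RC77 T/E had KRT5 at 4027 TPM and KLK3 listed at 0. Not every marker was split in this way: the luminal keratin KRT18 was at 320.5 and 324.8 TPM, MDA PCa 2b was 1.23 times RC77 T/E for KRT8, and the basal keratin KRT14 was at 37.4 TPM in MDA PCa 2b beside 3255 in RC77 T/E. Of 6 fibroblast markers none was expressed in MDA PCa 2b (sum 1.25 TPM) and 1, FAP at 9.35 TPM, in RC77 T/E (sum 10.1 TPM), while DCN was at 0.491 and 0.0531 TPM and LUM at 0.565 TPM and 0. None of 5 endothelial markers was expressed in either line, with sums of 0.221 and 0.0833 TPM. Of 4 smooth muscle markers only ACTA2 was expressed, at 1.27 and 2.92 TPM. Of 4 chondrocyte markers ACAN was listed at 0 in both lines, COMP was at 0.0201 and 0.00724 TPM, SOX9 in MDA PCa 2b was 2.44 times RC77 T/E, and MATN3 was at 0.0249 and 7.44 TPM. Of the leukocyte markers PTPRC was at 0.0113 TPM and 0, CD14 at 0.0730 and 4.92 TPM and CD68 at 0.663 and 37.9 TPM. The part of other cell types in the collagen values was not tested.

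Collagen chains need hydroxylation, folding, export, cutting and crosslinking before they form a matrix, and 42 genes for these steps and for collagen receptors were examined beside the chains. Of these, 24 were expressed in MDA PCa 2b versus 27 in RC77 T/E, or 57.1% and 64.3%, which is near the 57.9% and 61.7% of all protein-coding genes. Among the 28 expressed in at least 1 line, 13 were higher in RC77 T/E by 2-fold or more, 2 were higher in MDA PCa 2b by as much and 13 lay within 2-fold. These are 46.4% and 7.14%, beside the same 19.7% and 19.9% of all genes. The calls were made after adding 1 TPM and with open marks at the lowest position, which places some genes with a larger plain ratio within 2-fold. With open marks at the highest position the counts were 16 and 3, beside 2459 and 2592 of the 11432 genes. The median log2 ratio of the 28 genes was 0.88, and that of all 42 was 0.49.

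The modification and folding genes were expressed in both lines, 12 of 14 in each, unlike most chains. PPIB, a prolyl isomerase of the endoplasmic reticulum, was at 1029 TPM in MDA PCa 2b versus 506.0 in RC77 T/E. COLGALT1, which adds galactose to hydroxylysine, was at 39.6 and 122.2 TPM, and CRTAP, part of the prolyl 3-hydroxylation complex, at 23.1 and 20.6 TPM. For 9 of the 14 genes the mark was open, which leaves their ratio fixed. RC77 T/E was 7.47 times MDA PCa 2b for PLOD2, a lysyl hydroxylase, 5.40 times for SERPINH1, the collagen chaperone HSP47, and 3.15 times for P4HA2, a prolyl 4-hydroxylase subunit. For P4HB, the other subunit of that enzyme, MDA PCa 2b was 2.02 times RC77 T/E, and its log2 ratio passed 2-fold at the highest position only (-0.83 to -1.01). In secretion, for MIA3, which loads procollagen into transport vesicles, the MDA PCa 2b level was 3.48 times the other, for SEC23A the RC77 T/E level was 2.16 times the other, and MIA2 was listed at 0 in both lines.

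Of the 8 genes for removal of propeptides, 2 were expressed in MDA PCa 2b versus 3 in RC77 T/E. The shares of all protein-coding genes were 57.9% and 61.7%. For BMP1, the C-proteinase, the RC77 T/E level was 13.9 times that of MDA PCa 2b. Its enhancers PCOLCE and PCOLCE2 were at 0.861 and 4.09 TPM and at 0.0438 and 3.79 TPM. TLL1, which is related to BMP1, was at 1.72 TPM in MDA PCa 2b versus 0.535 in RC77 T/E. The N-proteinase genes ADAMTS2, ADAMTS3 and ADAMTS14 were at or below 0.324 TPM in both lines.

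Of the 6 crosslinking genes, 4 were expressed in at least 1 line, beside 11432 of the 17409 protein-coding genes. Of these 4, 2 exceeded 2-fold in favour of RC77 T/E, or 50%, beside 19.7% of all protein-coding genes in the same filter. LOXL2, a lysyl oxidase that acts on type IV collagen, stood at 0.563 TPM in MDA PCa 2b versus 49.4 in RC77 T/E (log2 ratio 5.01). PXDN, peroxidasin, which forms the sulfilimine bonds of type IV collagen, was higher in RC77 T/E by 8.86 times, and LOX itself by 1.79 times. For LOXL1 the RC77 T/E level was 2.11 times the other, and its log2 ratio passed 2-fold at the highest position only (0.92 to 1.06).

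Of the 10 receptor genes, 5 were below 1 TPM in both lines, beside 34.3% of all protein-coding genes. Among the other 5, 4 exceeded 2-fold in favour of RC77 T/E, beside 19.7% of all protein-coding genes in the same filter. MRC2, the endocytic collagen receptor ENDO180, was at 0.0856 TPM in MDA PCa 2b versus 43.7 in RC77 T/E. ITGA2 and ITGB1, the chains of the alpha 2 beta 1 integrin, were higher in RC77 T/E by 27.9 and 8.42 times, and the collagen-binding kinase DDR1 by 2.39 times. ITGA1 lay within 2-fold, at 16.8 and 19.4 TPM. GP6, the collagen receptor of platelets, was at 0.125 and 0.0598 TPM.

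**Figure D5:**
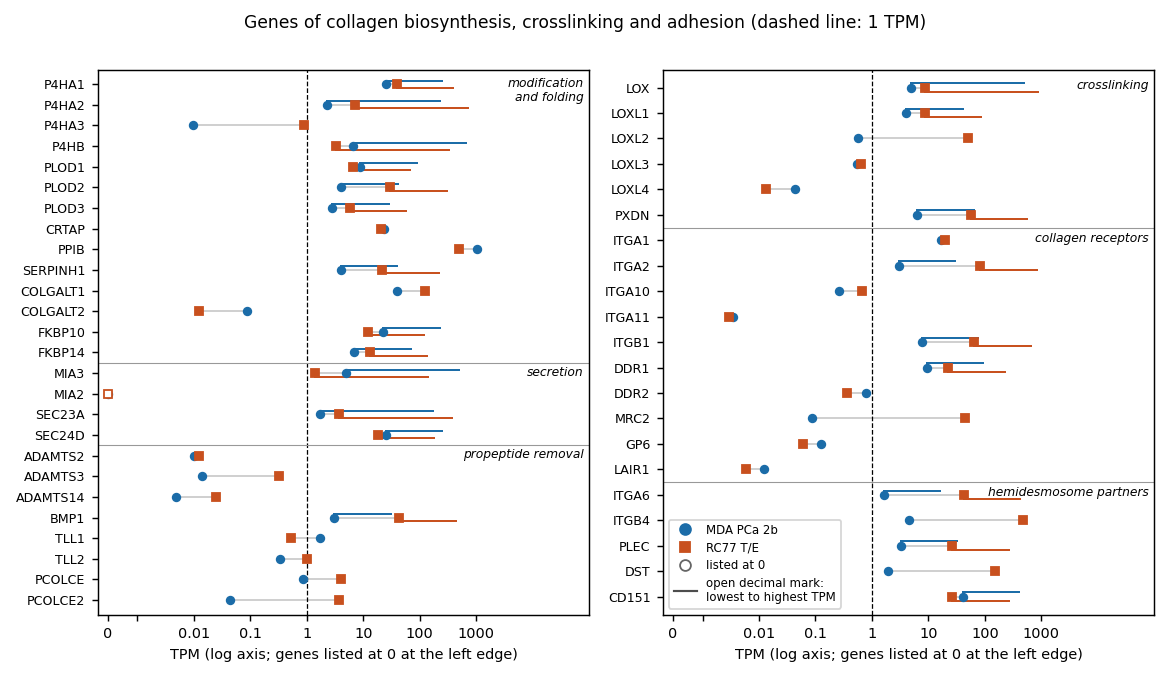
TPM (log axis) in both cell lines of the genes for modification, secretion, propeptide removal, crosslinking and reception of collagen and of the hemidesmosome partners of COL17A1, with lines over the values that open decimal marks allow. LOXL2, MRC2, ITGB4 and DST lie far apart between the lines, whereas CRTAP and ITGA1 lie close together.

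Genes that overlap can share reads, and it is not stated whether the TPM values used the strand. The table spans of COL4A1 and COL4A2 overlap by 1346 bases on opposite strands, COL9A3 overlaps TCFL5 and COL18A1 overlaps SLC19A1. Further overlaps on opposite strands include COL10A1 with NT5DC1 and COL19A1 with LMBRD1. The overlapping genes on the same strand were microRNAs and others, such as NIP7P3 for COL10A1 and SOD2P1 for COL11A1.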

How the data were processed

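Total RNA libraries of the 2 lines, 1 each, were prepared with a directional kit. The authors deposited 1 table with the TPM of each locus in both lines, the authors' mean and its standard error. The submitters' processing notes name CASAVA, FastQC 0.11.9, Trimmomatic 0.38, Salmon 1.2.0 and GRCh38, without their roles, and row identifiers have the form that Cufflinks writes. Every column of values per sample was used. The design assumed plain TPM, but in the deposited table the TPM values of 1 or more with at least 3 decimals lack their decimal mark, so the mark was restored before any other step by keeping each position that gave the authors' mean and standard error as written. Of 22791 rows, 16246 had 1 position and 6545 several. In a test on simulated data of 5000 rows, 3503 had 1 position, all of them the true one, and the positions of all 5000 included it. The simulated rows were written with the same rule that the restoration inverts, so this checks the code and not the rule. Of 1998 rows also compared with readable values in the paper's supplement, all 1310 with 1 position were equal. In the 688 with several positions the true value was always among them, but it was the lowest in only 530 (77.0%).

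Repeated loci (87 rows) were used once and the loci of a symbol were summed. The threshold was 1 TPM, the pseudocount 1 TPM and the fold 2. With 1 library per line no test was made. The collagen genes and all lists were chosen with earlier results of these data known. The genes named are all 44 collagen genes, the listed genes of collagen synthesis, receptors and hemidesmosomes, and the cell type markers. P3H1, P3H2, P3H3 and P3H4 were not analysed here. Promoter windows came from a set of RefSeq starts (GRCh38.p14), and this set held 32 of the 44 members. Exons came from GENCODE release 29, where 44 of 44 members lay within 100 kb of their table position. The alternatives were thresholds of 0.5 and 5 TPM, a pseudocount of 0.1 TPM, no filter, centring on the median, upper quartile scaling and the highest position of open marks. Leaving out COL17A1 or genes listed at 0 was chosen after seeing the data. Python 3.11.15, numpy 2.4.6 and matplotlib 3.10.9 were used.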

Additional observations from a re-analysis of the deposited data

How the results depend on the processing

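No paired analysis was possible because there was only 1 library for each line. The counts of collagen genes past 2-fold, 15 for RC77 T/E and 2 for MDA PCa 2b, were 15 and 2 with the other pseudocount, both scalings and open marks at their highest position, and leaving in genes below 1 TPM cannot alter them. The number expressed in MDA PCa 2b, 5 at 1 TPM, was 12 at 0.5 TPM and, at 5 TPM, 2 or 4 with open marks at the lowest or highest position. For RC77 T/E 17 became 20 at 0.5 TPM and 16 at 5 TPM. Shares of all protein-coding genes were not computed at 0.5 and 5 TPM, so these shifts cannot be called particular to collagens. The median log2 ratio of 3.02 was 5.75 with a pseudocount of 0.1 TPM and 0.28 over all members above 0. Of the genes of synthesis and receptors, 13 were past 2-fold for RC77 T/E and 2 for MDA PCa 2b. These counts became 14 and 1 with centring on the median. They became 16 and 3 with a pseudocount of 0.1 TPM, and also with open marks at their highest position. Open marks at their highest position raised the class sums of MDA PCa 2b to 12.4 TPM (anchoring fibril), 55.5 (FACIT) and 257.7 (other), and those of RC77 T/E to 785.2 (anchoring fibril) and 762.0 (FACIT). Without COL17A1 the transmembrane sums were 0.0439 TPM in MDA PCa 2b versus 1.56 in RC77 T/E. Centring moved the all-gene split of 2-fold calls from 49.9% to 57.9% in RC77 T/E's favour, and upper quartile scaling to 57.3%. Low members reversed sign when centred, with log2 ratios of 0.079 for COL6A3, 0.13 for COL9A1, 0.14 for COL10A1, COL14A1 and COL19A1, 0.083 for COL15A1 and COL28A1, and 0.12 for COL24A1. Under upper quartile scaling COL10A1 was at 0.0027 and COL14A1 at 0.0021. The unknown depth and single libraries limit every value, and levels below 1 TPM most.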

Other observations

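A set of 8 genes with collagen-like domains outside the rule was chosen after values were seen, and 3 of them, CCBE1, CTHRC1 and COLEC12, were at 1 TPM or more in a line. CCBE1, which has a collagen-like domain and acts in lymphatic growth, was at 0.00462 TPM in MDA PCa 2b versus 19.9 in RC77 T/E. CTHRC1, a secreted protein with a short collagen repeat, was at 0.138 and 2.77 TPM. COLEC12, a scavenger receptor with a collagen-like stalk, was at 6.19, 61.9 or 618.6 TPM in MDA PCa 2b and listed at 0 in RC77 T/E. COLQ, the collagen tail of acetylcholinesterase, was at 0.680 and 0.116 TPM, and COLEC11 at 0.0955 and 0.0470. COLEC10 and ADIPOQ were listed at 0 in both lines, and MARCO at 0 in MDA PCa 2b beside 0.00792 TPM in RC77 T/E. The antisense gene COL4A2-AS1 was at 0.0852 and 0.141 TPM and COL18A1-AS1 was listed at 0 in MDA PCa 2b and at 0.00486 TPM in RC77 T/E.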
